A study of Mus musculus with 2 samples.

Results

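The genes of glycolysis and of pyruvate use were followed across the cells of the neonatal mouse heart. The 34 members were chosen by gene symbol, and all 34 were found, as 35 of the 31053 gene rows, because Aldoa has a second Ensembl identifier with 2 UMIs at P1 and 4 at P7 that was added to the first. They cover glucose entry (Slc2a1, Slc2a3, Slc2a4), the enzymes from hexokinase to pyruvate kinase, the regulators of phosphofructokinase (Pfkfb2, Pfkfb3, Pfkfb4), lactate dehydrogenase and lactate transport (Ldha, Ldhb, Slc16a1, Slc16a3), and the entry of pyruvate into mitochondria and its oxidation (Mpc1, Mpc2, Pdha1, Pdhb, Dlat, Pdk1, Pdk2, Pdk3).

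The data comprised 1 single cell RNA-seq library of P1 hearts and 1 of P7 hearts (postnatal days 1 and 7), each made from 3 hearts of a litter that were pooled, digested with collagenase and sorted for live cells. Digestion took 20 min at P1 and 45 min at P7, and the genotype and strain of these mice are not given in the sources used here. Xist had 57336 UMIs at P1 and 12 at P7, and 4 Y-linked genes had 2 and 18039, so age, sex of the pooled pups and digestion time cannot be told apart. With 1 library per age there was no replicate and no test of P1 against P7.

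Expression was counted as unique molecular identifiers (UMIs, tags that mark each captured mRNA molecule). Barcodes with 200 to 8000 genes and no more than 20% mitochondrial UMIs were kept, which left 4991 cells with 59026295 UMIs at P1 and 8511 cells with 97432007 UMIs at P7, at median depths of 10875 and 10104 UMIs. Cells were gated by marker genes, and the UMIs of each gene were summed per class and library and scaled to UMIs per 1000000 UMIs of the class (counts per this total, CPM). Gated cells numbered 1622 at P1 and 3200 at P7 for endothelium (Cdh5), 911 and 1936 for fibroblasts (Pdgfra), 209 and 101 for valve-type cells (Fmod with Scx), 154 and 397 for smooth muscle (Myh11), 197 and 351 for pericytes (Kcnj8), 198 and 198 for macrophages (Csf1r), and 42 and 21 for epicardium (Upk3b). Intervals are 95% exact Poisson or binomial intervals and cover counting error only, not the variation between hearts. Those on summed UMIs also leave out the variation between cells. The libraries shared 18 barcodes, of which 13 were kept in both.

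The gates were checked with other markers. All 5 endothelial, all 5 macrophage, all 5 epicardial and all 4 smooth muscle markers were highest in their own class in both libraries, and 3 of 4 pericyte markers were, without Notch3. Only the 7 gated classes were compared. No monocyte class was gated and no monocyte markers were checked, so the Csf1r cells were not set apart from monocytes. Nor was other mesothelium, such as that of the lung, gated or checked. The Upk3b cells, named epicardium here, were therefore not set apart from it. Of the 5 fibroblast markers only 3 at P1 and 2 at P7 were highest in fibroblasts, since Dcn, Postn and at P7 Col1a1 were higher in another class. The Aplnr-gated endothelial subset was not separated by its markers, of which 0 of 3 at P1 and 1 of 3 at P7 were highest in it, and it is named below by its gate gene alone. Of the other subsets, 3 of 4 Gja5 markers in both libraries (not Bmx), 4 of 4 Car4 markers at P1 and 3 of 4 at P7 (not Timp4), and 2 of 4 Npr3 markers at P1 (not Cytl1 and Hapln1) and 4 of 4 at P7 were highest in their own subset, and 4 of 5 valve-type markers at P1 (not Cilp2) and 5 of 5 at P7.

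Markers of lung epithelium were higher at P1. The 3 alveolar epithelium markers (Sftpc, Ager and Cldn18) summed to 218 CPM over all P1 cells and 1.10 CPM over all P7 cells, and in the gated classes to between 6.30 and 64.3 CPM at P1, highest in valve-type cells, and between 0 and 3.25 CPM at P7. Orders of classes given below cover the 7 gated classes and not the cardiomyocyte-rich barcodes, unless these are named.

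Glycolysis splits glucose into pyruvate in the cytosol and yields ATP without oxygen. Pyruvate is then reduced to lactate by lactate dehydrogenase and exported by monocarboxylate transporters, or carried into mitochondria and oxidised by the pyruvate dehydrogenase complex, which pyruvate dehydrogenase kinases switch off. The heart is known to shift from glucose and lactate towards fatty acids as fuel after birth, and many genes of the pathway are known targets of hypoxia-inducible factors.

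The members together took 0.389% of all UMIs at P1 and 0.368% at P7. Their summed level was highest in macrophages at P1, at 5828 CPM, and in smooth muscle at P7, at 5884 CPM. It was 3981 and 3732 CPM in endothelium, 3258 and 3293 CPM in fibroblasts, 2955 and 2836 CPM in valve-type cells, 4016 and 4990 CPM in pericytes and 4924 and 3914 CPM in epicardium, with P1 given before P7. Smooth muscle itself stood at 4584 CPM at P1, and macrophages at 4902 CPM at P7. Valve-type cells were thus lowest in both libraries. Barcodes rich in cardiomyocyte RNA, with 88 at P1 and 17 at P7, reached 22271 and 23274 CPM, but they were shallow, with medians of 3932 and 1617 UMIs.

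The class with the highest CPM was the same in both libraries for 18 of the 34 members. It was macrophages for 8 of them (Hk2, Pfkfb4, Gapdh, Pgk1, Eno1, Eno3, Pkm and Slc16a3), smooth muscle for 6 (Slc2a4, Pfkm, Pfkp, Pgam2, Pdhb and Mpc1), epicardium for Aldoc and Slc16a1, endothelium for Ldha and pericytes for Ldhb. Fibroblasts led no member in both libraries. The leading class was not compared over all genes, so whether 18 of 34 is usual is not known here. Some leads were narrow, as for Pgk1 at P1 (220.6 CPM in macrophages, 206.5 in endothelium). At P7 Pkm had 433 CPM in macrophages and 415 in pericytes, and Ldha had 568 CPM in endothelium and 540 in pericytes. Aldoc led on 8 and 7 epicardial UMIs.

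**Figure D1:**
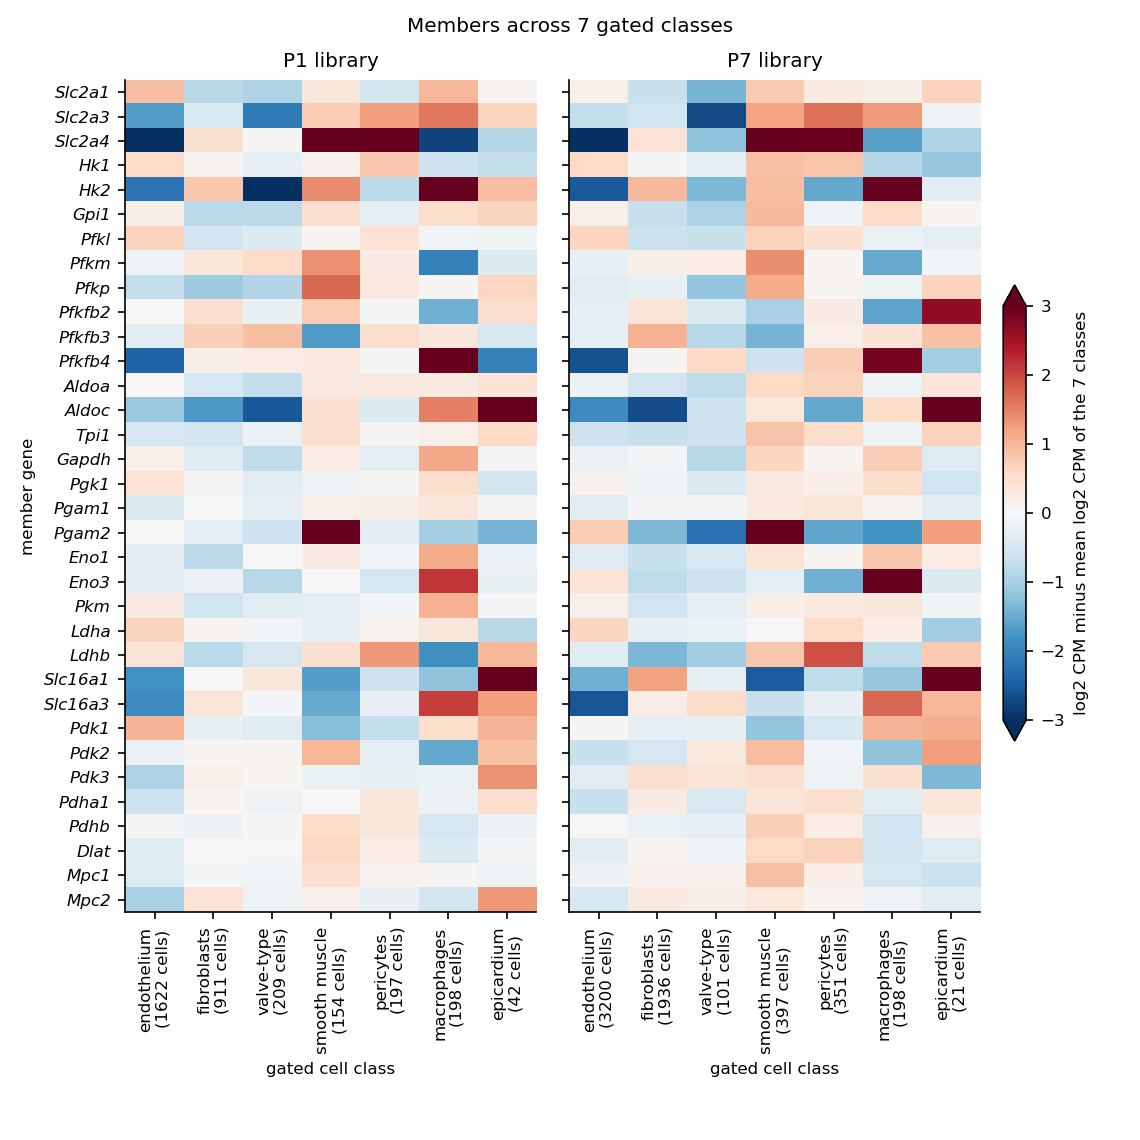
Level of each member (rows) in 7 gated classes (columns) in the P1 library (left) and the P7 library (right), as log2 CPM, with 0.5 counts added, minus the mean log2 CPM of the 7 classes; red is above that mean and blue below, and the scale ends at 3. Slc16a1 and Aldoc stand out in epicardium, Hk2, Pfkfb4, Eno3 and Slc16a3 in macrophages, and Slc2a4 and Pgam2 in smooth muscle, in both libraries.

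Promoter sequences are shown for the lactate dehydrogenases and the monocarboxylate transporters, because the balance within both pairs differed between classes in each library. The windows are RefSeq promoters on GRCm38.p6, from 250 bases before to 50 after an annotated start. Capitals mark ACGTG or its reverse complement CACGT, 1 form of the core of the hypoxia response element, searched on both strands. The form that starts with G, GCGTG, was not searched, so a window with 0 matches may still hold the core. CACGTG holds both, overlapping by 4 letters, and counts as 2 matches. Ldha has 2 windows, of which the one shown, at chr7:46845554-46845853 on the plus strand, has 5 matches and the other, at chr7:46846832-46847131, has 0. The other genes have 1 window each: Ldhb at chr6:142507908-142508207 on the minus strand with 0, Slc16a1 at chr3:104638414-104638713 on the plus strand with 3, and Slc16a3 at chr11:120948817-120949116 on the plus strand with 2.
Ldha: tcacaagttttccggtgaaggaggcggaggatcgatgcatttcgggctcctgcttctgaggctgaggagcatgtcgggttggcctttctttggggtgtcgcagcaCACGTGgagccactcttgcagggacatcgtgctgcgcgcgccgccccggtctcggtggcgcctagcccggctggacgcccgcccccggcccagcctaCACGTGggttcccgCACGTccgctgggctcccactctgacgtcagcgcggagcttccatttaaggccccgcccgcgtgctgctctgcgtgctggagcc
Ldhb: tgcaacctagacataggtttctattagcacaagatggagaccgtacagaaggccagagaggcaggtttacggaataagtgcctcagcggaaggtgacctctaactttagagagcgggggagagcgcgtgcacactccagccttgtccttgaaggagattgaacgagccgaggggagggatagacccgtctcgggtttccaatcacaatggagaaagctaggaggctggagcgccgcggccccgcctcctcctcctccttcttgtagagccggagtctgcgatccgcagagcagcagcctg
Slc16a1: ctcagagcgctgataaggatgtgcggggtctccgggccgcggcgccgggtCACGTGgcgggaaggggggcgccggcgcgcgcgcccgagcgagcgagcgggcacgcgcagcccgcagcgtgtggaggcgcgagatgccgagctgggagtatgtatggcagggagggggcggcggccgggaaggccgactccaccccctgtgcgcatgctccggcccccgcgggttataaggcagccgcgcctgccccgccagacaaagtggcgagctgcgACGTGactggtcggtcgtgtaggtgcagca
Slc16a3: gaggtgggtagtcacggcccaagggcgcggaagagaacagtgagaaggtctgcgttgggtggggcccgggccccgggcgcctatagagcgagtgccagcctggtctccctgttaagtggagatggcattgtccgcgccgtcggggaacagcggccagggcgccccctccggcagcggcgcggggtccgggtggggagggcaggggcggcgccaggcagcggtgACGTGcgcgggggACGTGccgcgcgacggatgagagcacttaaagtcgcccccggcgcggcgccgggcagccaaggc

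Of the 32 members with a window, 18 (56.2%) held ACGTG or CACGT in at least 1 window, against 21.8% of 27025 genes with a window. No window was listed for Slc2a3 and Slc2a4. The share by window was 44.9% of 49 windows of members and 19.6% of all 32851 windows. Member windows also held more CpG dinucleotides, with a median of 20 against 7, and ACGTG contains a CpG. A match describes the letters and not binding, and what part CpG content has in the difference was not tested.

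P1 and P7 were compared within each class as the log2 ratio of CPM with 0.5 counts added, for members with at least 50 UMIs over both libraries, and a member was counted as higher when its CPM differed at least 1.5-fold. In endothelium, 4 of 30 measured members were higher at P1 (Ldhb, Slc16a3, Slc2a1 and Pdk1), where 8.01% of all measured genes were, and 2 were higher at P7 (Pgam2 and Eno3), against 7.83% of all genes. In fibroblasts, 4 of 33 were higher at P1 (Slc2a3, Ldhb, Pgam2 and Mpc2; 9.1% of all genes) and 3 at P7 (Slc2a4, Slc16a1 and Pfkp; 8.3%). In macrophages, 4 of 25 were higher at P1 (Slc2a1, Pfkfb4, Pkm and Slc16a3; 5.67%) and 3 at P7 (Eno3, Pdk1 and Ldhb; 10.5%). The members were thus split between the ages in these 3 classes. The median ratio over the measured members was -0.0035 in endothelium, -0.094 in fibroblasts and 0.18 in macrophages, beside -0.062, 0.018 and -0.065 over all genes.

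In mural cells, the cells around vessels, more members were higher at P7 than at P1. In smooth muscle, 5 of 26 members were higher at P7 (Pgam2, Slc2a4, Hk1, Pfkl and Slc16a3), against 7.56% of all genes, and 1 at P1 (Pfkp), against 8.1%. In pericytes, 3 of 23 were higher at P7 (Slc2a4, Slc2a1 and Aldoa), against 6.28% of all genes, and 0 at P1, against 5.53%. The median ratio of the members was -0.32 in smooth muscle and -0.28 in pericytes, beside 0.0064 and -0.029 over all genes, and the ratio was above 0 for 4 of 26 members in smooth muscle and 6 of 23 in pericytes. In valve-type cells, 2 of 22 members were higher at P1 (Pfkfb3 and Ldhb; 8.95% of all genes) and 0 at P7 (6.21%). In epicardium only 15 members could be measured, of which 2 were higher at P1 (Mpc2 and Gpi1; 11.6% of all genes) and 0 at P7 (10.3%).

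Some of these counts rest on members close to 1.5-fold or on few UMIs. With a gate of at least 1 Cdh5 UMI the endothelial log2 ratios of Pgam2 and Eno3 were -0.17 and -0.28, and with each cell thinned to 2000 UMIs that of Pdk1 was 0.38. With cells that carry 2 gate genes kept, Slc16a3 in endothelium was at 0.49, Pgam2 in fibroblasts at 0.44 and Aldoa in pericytes at -0.49. Thinning brought Pkm and Pfkfb4 in macrophages to 0.43 and 0.27 and turned the sign of Pdk1 there and of Slc16a3 in smooth muscle. Ratios under 1.5-fold were also found under at least 1 setting for Slc16a3 (0.54) and Ldhb (-0.58) in macrophages, Pfkp in smooth muscle (0.45) and Slc2a1 in pericytes (-0.42, with lung-type cells left out). With lung-type cells left out, those with a UMI of Sftpc, Ager, Hoxa5 or Foxf1, the counts at P1 and P7 were 4 and 2 in endothelium, 4 and 3 in fibroblasts and 3 and 3 in macrophages. In smooth muscle Slc16a3 had 15 and 53 UMIs, and in pericytes Slc2a1 had 16 and 38, and both intervals included 0.

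**Figure D2:**
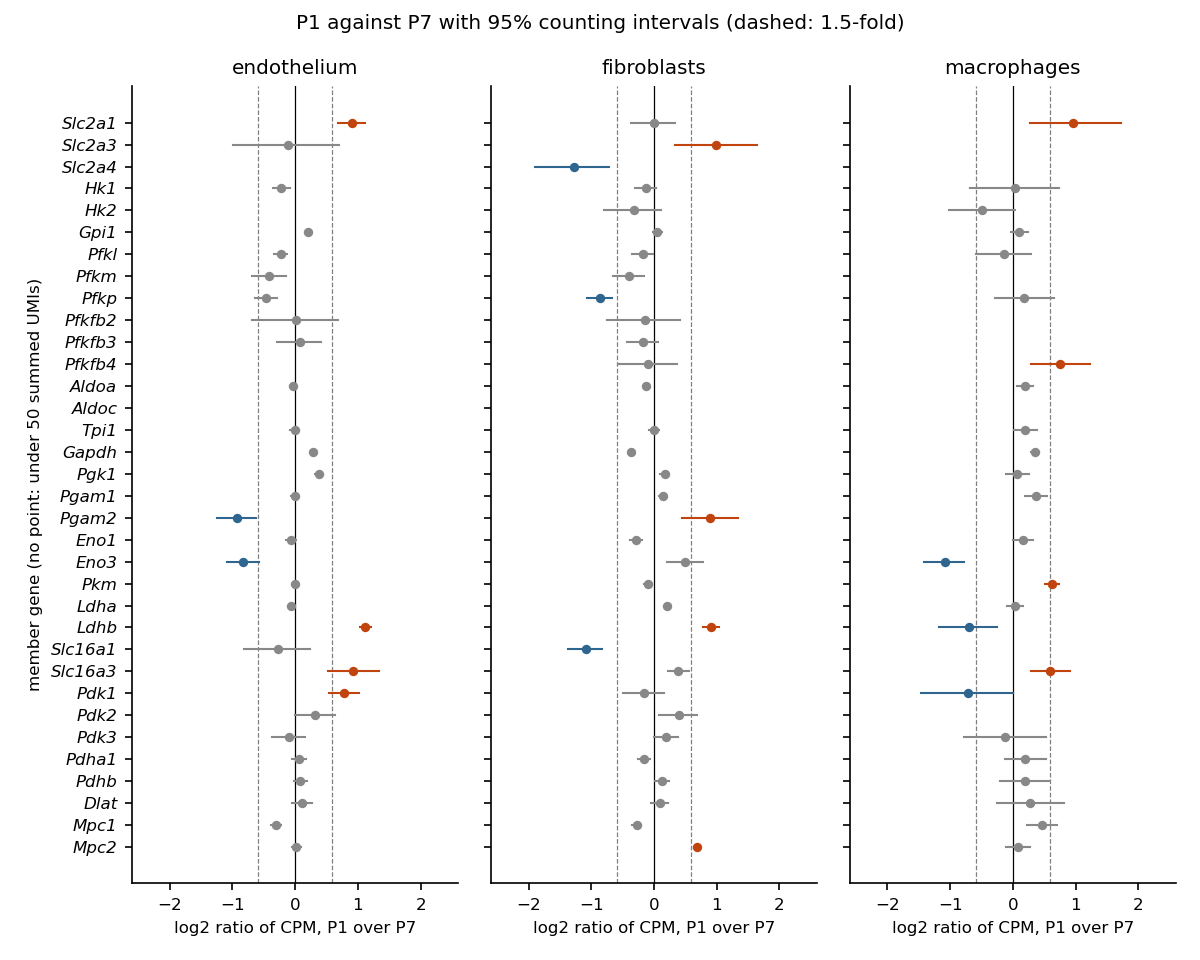
Log2 ratio of CPM, P1 over P7, for each member in endothelium, fibroblasts and macrophages (panels), with 95% counting intervals; dashed lines mark 1.5-fold, orange points lie beyond it towards P1 and blue points towards P7, and members with under 50 summed UMIs have no point. Ldhb lies beyond the line towards P1 in endothelium (1.12) and fibroblasts (0.90) and towards P7 in macrophages (-0.71), while most members lie between the lines.

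Classes were compared with each other within each library, and a member was counted when it differed at least 1.5-fold in the same direction at P1 and at P7. Against fibroblasts, 6 of 32 members were higher in endothelium (Slc2a1, Pfkl, Ldhb, Gpi1, Pkm and Ldha), where 15.8% of all genes were, and 8 were higher in fibroblasts (Hk2, Pfkfb4, Slc16a3, Slc16a1, Pfkfb3, Mpc2, Pdk3 and Pdha1), against 19.8% of all genes. Against endothelium, 8 of 30 members were higher in macrophages (Hk2, Pfkfb4, Slc16a3, Eno3, Eno1, Gapdh, Pdk3 and Pfkfb3; 15% of all genes) and 4 in endothelium (Pgam2, Pfkm, Hk1 and Pfkl; 29.5%). Smooth muscle was higher than pericytes for 5 of 23 members (Pgam2, Pfkp, Pfkm, Slc2a4 and Gpi1; 7.96% of all genes), and pericytes were higher for Ldhb alone (12.3%). Epicardium was higher than fibroblasts for 11 of 30 members (Slc16a1, Ldhb, Pdk1, Pfkp, Pdk2, Tpi1, Gpi1, Slc2a1, Aldoa, Slc16a3 and Eno1; 12.4% of all genes) and lower for 3 (Pfkfb4, Hk1 and Ldha; 13.9%). Many of these rest on few epicardial UMIs. The intervals included 0 in at least 1 library for Slc2a1 (7 and 4 UMIs), Pdk1 (10 and 5), Pdk2 (10 and 6), Slc16a3 (35 and 10) and Hk1 (9 and 3). Pfkfb4 had 0 epicardial UMIs in both libraries, which allows up to 4.72 and 11.1 CPM, above the fibroblast levels of 3.59 and 3.85 CPM, so a difference was not detectable at this depth. The intervals of Pfkfb3 in macrophages against endothelium included 0 in both libraries.

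Glucose entry was divided among the 3 transporters by class. Slc2a1, the basal glucose transporter of most cells, had 21.4 CPM (19.4 to 23.6) in endothelium at P1 and 11.5 CPM (10.3 to 12.8) at P7, which gave 0.90 (0.69 to 1.11) as log2 ratio. The level at P1 was also the higher in the Aplnr subset (20.9 and 11.3 CPM) and in the Car4 subset (26.9 and 14.1 CPM). In the Npr3 subset the values were 21.2 and 22.0 CPM, and their intervals overlapped. Slc2a1 is not given for the Gja5 subset, which held 33 cells at P1 and 135 at P7. In macrophages Slc2a1 had 22.5 CPM at P1 and 11.4 CPM at P7 (log2 ratio 0.96, 0.27 to 1.72), whereas fibroblasts had 6.41 and 6.44 CPM.

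Slc2a4, the insulin-responsive transporter of muscle and fat, was highest in smooth muscle and then pericytes among the gated classes. It had 26.2 CPM (19.4 to 34.5) at P1 and 52.4 CPM (45.8 to 59.7) at P7 in smooth muscle, and 12.4 CPM (8.07 to 18.1) and 27.3 CPM (21.8 to 33.8) in pericytes. It was seen in 25.3% and 38.3% of smooth muscle cells, against 0.0617% and 0.25% of endothelial cells, and in 4.05% and 11.4% of smooth muscle cells after each cell was thinned to 2000 UMIs. Fibroblasts had 1.92 and 4.70 CPM, a log2 ratio of -1.27 (-1.90 to -0.72). Macrophages held 0 UMIs of Slc2a4 at P1, which allows up to 1.25 CPM, and epicardium held 0 in both libraries, which allows up to 4.72 and 11.1 CPM. Slc2a4 thus made up 56.8% of the UMIs of the 3 transporters in smooth muscle at P1 and 70.4% at P7, and 0.23% and 2.17% in endothelium. Cardiomyocyte-rich barcodes had 18.0 CPM (8.62 to 33.1) of Slc2a4 at P1, where it made up 10 of 11 transporter UMIs (90.9%, 58.7 to 99.8). These 10 UMIs stood beside 37249 UMIs of 8 cardiomyocyte marker genes, a ratio of 0.0268 per 100, against 3.92 and 33.1 per 100 in smooth muscle.

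Slc2a3, a transporter of high glucose affinity, was low in every class. It was highest in macrophages at P1, at 10.4 CPM, and in pericytes at P7, at 6.11 CPM. In fibroblasts it had 2.56 CPM (1.83 to 3.49) at P1 and 1.29 CPM (0.940 to 1.74) at P7, on 40 and 44 UMIs.

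Hexokinase traps glucose in the cell as glucose 6-phosphate. Hk1 made up nearly all UMIs of Hk1 and Hk2 in endothelium, where Hk2 took 1.13% at P1 and 0.900% at P7, and in fibroblasts Hk2 took 12.4% and 14.0%. In macrophages the balance of the 2 genes was reversed, with Hk2 at 59.6% (49.0 to 69.6) and 67.9% (58.2 to 76.7). These are not shares of all hexokinase UMIs, because Hk3 is not a member and was left out. Hk3 was measured in macrophages, where it was higher at P7, and was above its endothelial level in both libraries. The Hk2 level in macrophages was 23.4 CPM at P1 and 32.9 CPM at P7, against 0.416 and 0.388 CPM in endothelium and no more than 5.24 CPM in any of the other gated classes. In the same cells Hk1 was at its second lowest among the 7 classes, at 15.8 and 15.5 CPM. Hk1 was 26.7 CPM (19.9 to 35.1) at P1 and 52.0 CPM (45.4 to 59.2) at P7 in smooth muscle, and the intervals did not overlap. Gpi1, which converts glucose 6-phosphate to fructose 6-phosphate, ranged from 119 to 452 CPM over the gated classes and was 414 CPM (366 to 467) at P1 and 238 CPM (183 to 303) at P7 in epicardium.

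Phosphofructokinase carries out the committed step. Its liver-type gene Pfkl took 67.8% of the UMIs of the 3 paralogs in endothelium at P1 and 64.5% at P7, whereas the platelet-type gene Pfkp took 64.7% in smooth muscle at P1. In smooth muscle at P7 the Pfkp share was 41.3% and the Pfkl share 39.8%, compared with 22.0% for Pfkl at P1. The ages stood in opposite order for Pfkp in that class and in fibroblasts. It had 117 CPM (102 to 134) at P1 and 78.2 CPM (70.1 to 87.0) at P7 in smooth muscle, but 16.9 CPM (14.9 to 19.1) and 30.8 CPM (29.0 to 32.7) in fibroblasts. Among the gated classes the muscle-type gene Pfkm was highest in smooth muscle, at 24.1 and 35.7 CPM, and lowest in macrophages, at 2.08 and 4.57 CPM, while the cardiomyocyte-rich barcodes had 147 and 237 CPM. A non-coding gene overlaps Pfkm on its strand, so part of these reads could be shared.

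The Pfkfb enzymes make and break the sugar phosphate that activates phosphofructokinase. Pfkfb3 supplied most of their UMIs in endothelium (73.3% and 72.2%) and fibroblasts (68.0% and 69.0%), and Pfkfb4 did so in macrophages (82.2% and 74.1%). Pfkfb4 had 46.3 CPM (38.1 to 55.7) in macrophages at P1 and 27.4 CPM (20.9 to 35.3) at P7, against no more than 6.11 CPM in any other class. In valve-type cells Pfkfb3 had 14.3 CPM (10.4 to 19.2) at P1 and 3.63 CPM (1.33 to 7.90) at P7, on 44 and 6 UMIs. Pfkfb2 had 118 and 209 UMIs in all cells of the libraries and gave no ratio beyond 1.5-fold where it could be measured. Another gene overlaps Pfkfb2 on its strand, so part of its reads could be shared too.

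The enzymes that follow, from aldolase to pyruvate kinase, were among the most abundant members. Gapdh, which makes the NADH of the pathway, was highest in macrophages at 1939 and 1519 CPM, and had 978 and 805 CPM in endothelium and 675 and 870 CPM in fibroblasts. The P1 level was thus above that of P7 in endothelium and macrophages and below it in fibroblasts, smooth muscle (1028 and 1409 CPM) and pericytes (725 and 954 CPM), each by less than 1.5-fold. Pkm, the final enzyme, had 666 CPM (634 to 700) in macrophages at P1 and 433 CPM (406 to 462) at P7, and 379 and 381 CPM in endothelium. Eno1 was highest in macrophages (296 and 264 CPM), and its near copy Eno1b held 63 and 108 UMIs in all cells beside 6693 and 11331 for Eno1. Aldoa, the main aldolase, was 483 CPM (454 to 514) at P1 and 727 CPM (697 to 757) at P7 in pericytes. Its paralog Aldoc had 12.6 and 26.0 CPM in epicardium, on 8 and 7 UMIs, no more than 2.50 CPM in the other gated classes, and 19.8 CPM on 11 UMIs in the cardiomyocyte-rich barcodes at P1. The remaining ones, Tpi1, Pgk1 and Pgam1, differed by less than 1.5-fold between the ages in every class where they were measured. Pgk1, with Pdha1 and Pdk3, lies on the X chromosome, and the libraries differ in sex.

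Pgam2 and Eno3, the muscle forms of phosphoglycerate mutase and enolase, need the cardiomyocyte RNA in each class set beside them. In cardiomyocyte-rich barcodes Pgam2 had 2.27 UMIs at P1 and 2.44 at P7 for every 100 UMIs of 8 cardiomyocyte marker genes (Myh6, Tnnt2, Actc1, Tnni3, Myl2, Myl7, Ckm and Mb), and Eno3 had 2.59 and 3.21. In endothelium the P1 and P7 levels were 6.25 and 12.0 CPM for Pgam2 and 9.37 and 16.6 CPM for Eno3. The marker genes had 329 and 564 CPM there, so that Pgam2 stood at 1.90 and 2.12 per 100 and Eno3 at 2.85 and 2.95, close to the cardiomyocyte ratio in both libraries. A barcode could be both in a gated class and among the cardiomyocyte-rich barcodes, and how many were was not counted. In fibroblasts Pgam2 was instead higher at P1, at 5.13 against 2.76 CPM, the marker genes had 236 and 111 CPM, and the ratio was 2.17 and 2.49 per 100. In both classes Pgam2 was higher at the age at which the marker genes were higher. With cells of at least 1% cardiomyocyte marker UMIs left out, the endothelial log2 ratio was -1.22 for Pgam2 and -1.14 for Eno3. With these cells kept it was -0.93 and -0.83, so the difference between the ages was larger without them. What part that RNA has in these values was not tested.

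Smooth muscle Pgam2 and macrophage Eno3 lay farthest above the cardiomyocyte ratio. Eno3 was also above it in fibroblasts (4.42 and 6.67 per 100), valve-type cells (5.32 and 10.3) and pericytes (5.26 and 7.49). In smooth muscle Eno3 stood at 1.72 per 100 at P1 and 6.59 at P7. Epicardium had 3.33 and 1.60 per 100, on 6 and 2 UMIs of Eno3. Pgam2 had 72.8 CPM (61.2 to 86) at P1 and 213 CPM (199.7 to 227) at P7 in smooth muscle, where the marker genes had 669 and 158 CPM, which made 10.9 and 135 per 100. The difference is a log2 ratio of -1.55 (-1.82 to -1.29), and the cells with a Pgam2 UMI were 28.6% (21.6 to 36.4) and 38.3% (33.5 to 43.3), or 9.46% and 19.2% after thinning. Pericytes, the other mural class, had 4.75 and 2.25 CPM. The marker sum had another make-up in smooth muscle than in cardiomyocyte-rich barcodes. Ckm, 1 of the 8 genes, had 0.861 and 2.93 UMIs per 100 marker UMIs in smooth muscle, on 11 and 20 UMIs. In the cardiomyocyte-rich barcodes it had 5.36 and 5.64 per 100. The sum therefore need not measure cardiomyocyte RNA in smooth muscle. Eno3 had 52.1 CPM (43.4 to 62.1) at P1 and 111 CPM (97.5 to 126) at P7 in macrophages, or 46.1 and 113 per 100 marker UMIs. It was seen in 28.3% (22.1 to 35.1) and 37.4% (30.6 to 44.5) of macrophages, with overlapping intervals. Eno3 therefore took 15% (12.6 to 17.6) of the enolase UMIs of macrophages at P1 and 29.6% (26.5 to 32.9) at P7.

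**Figure D3:**
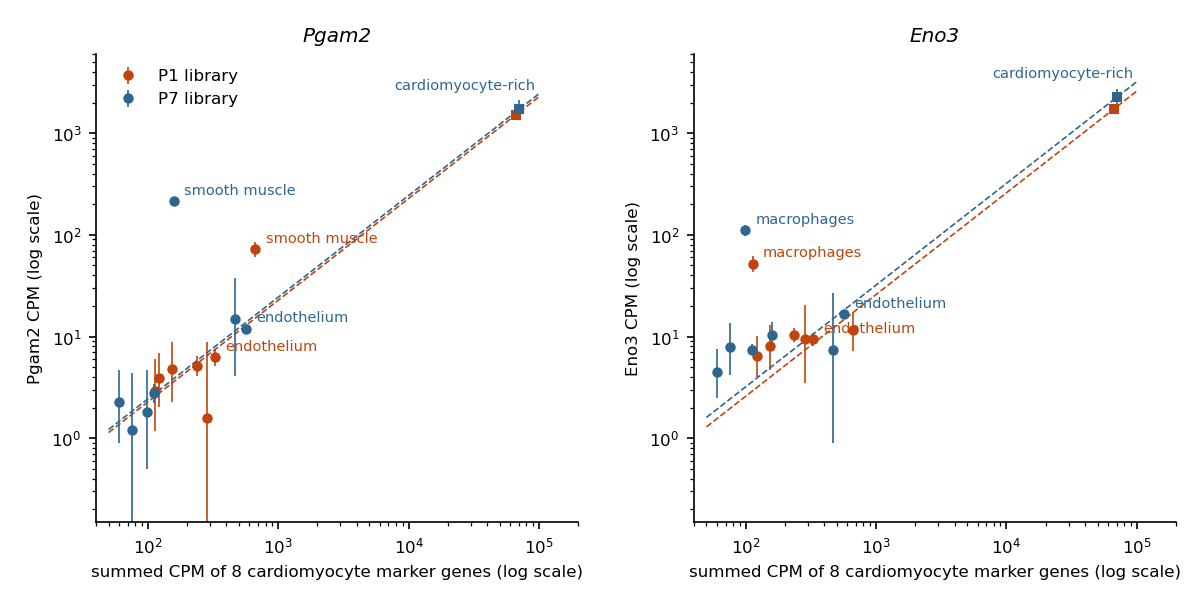
CPM of Pgam2 (left) and Eno3 (right) against the summed CPM of 8 cardiomyocyte marker genes, both on log axes, for 7 gated classes (circles) and cardiomyocyte-rich barcodes (squares) in each library, with 95% counting intervals; dashed lines show the ratio in the cardiomyocyte-rich barcodes of the same library. Endothelium lies close to the lines, while smooth muscle Pgam2 (10.9 and 135 per 100 marker UMIs) and macrophage Eno3 (46.1 and 113) lie above them.

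Lactate dehydrogenase turns pyruvate into lactate and back. Ldha, whose subunit is known to favour lactate production, was highest in endothelium among the gated classes, with 540.2 CPM (529.9 to 551) at P1 and 568 CPM (559.5 to 577) at P7, and had 951 and 1165 CPM in the cardiomyocyte-rich barcodes. Ldhb, whose subunit prevails in heart muscle and favours lactate use, had 135 CPM (130 to 140) in endothelium at P1 and 62.3 CPM (59.4 to 65.3) at P7, and the log2 ratio was 1.12 (1.03 to 1.20). The P7 value was the lower of the pair in each of the 4 endothelial subsets, at 145 and 69.5 CPM in Gja5, 99.0 and 53.6 CPM in Aplnr, 177 and 88.7 CPM in Car4, and 96.9 and 41.5 CPM in Npr3 cells. The Ldhb share of both genes was 20.0% (19.3 to 20.7) in endothelium at P1 and 9.88% (9.45 to 10.3) at P7.

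Fibroblasts and valve-type cells had the same order of ages, with 58.7 and 31.4 CPM and with 72.8 and 38.7 CPM of Ldhb. Smooth muscle had 142 and 143 CPM, pericytes 256 and 311 CPM, and macrophages 28.8 CPM (22.4 to 36.4) and 47.1 CPM (38.4 to 57.1). The share of Ldhb was lowest in macrophages at P1, at 6.24%, and highest in epicardium, at 52.0% (45.6 to 58.3) and 44.0% (33.2 to 55.3), next to pericytes with 41.2% and 36.5%. In cardiomyocyte-rich barcodes it was 69.7% and 63.0%. Ldhb had 3.26 and 2.80 UMIs per 100 marker UMIs in those barcodes and 41.0 and 11 in endothelium. The cardiomyocyte marker genes had 329 and 564 CPM in endothelium, and their part in the Ldhb values was not tested.

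Lactate and pyruvate cross the cell membrane through Slc16a1 and Slc16a3. Slc16a1 had 280.3 CPM (241 to 325) at P1 and 259.9 CPM (203 to 328) at P7 in epicardium, and no more than 19.5 CPM in any other class. It was found in 38 of 42 and 19 of 21 epicardial cells, against 2.65% and 2.53% of endothelial cells, and after thinning to 2000 UMIs in 38.1% and 42.9% of epicardial cells, against 0.319% and 0.456% of endothelial cells. The median depth was 15164 and 12423 UMIs in epicardium and 10752 and 7859 UMIs in endothelium. Fibroblasts had 9.17 CPM (7.73 to 10.8) at P1 and 19.5 CPM (18.1 to 21.1) at P7, a log2 ratio of -1.09 (-1.36 to -0.83). Slc16a3, known for lactate export from strongly glycolytic cells, was highest in macrophages at 98 CPM (85.9 to 111) and 64.9 CPM (54.7 to 76.5), followed by epicardium at 55.1 and 37.1 CPM, and was lowest in endothelium at 6.30 and 3.31 CPM. Slc16a1 thus made up 83.6% and 87.5% of the UMIs of the pair in epicardium and 3.69% and 5.33% in macrophages.

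**Figure D4:**
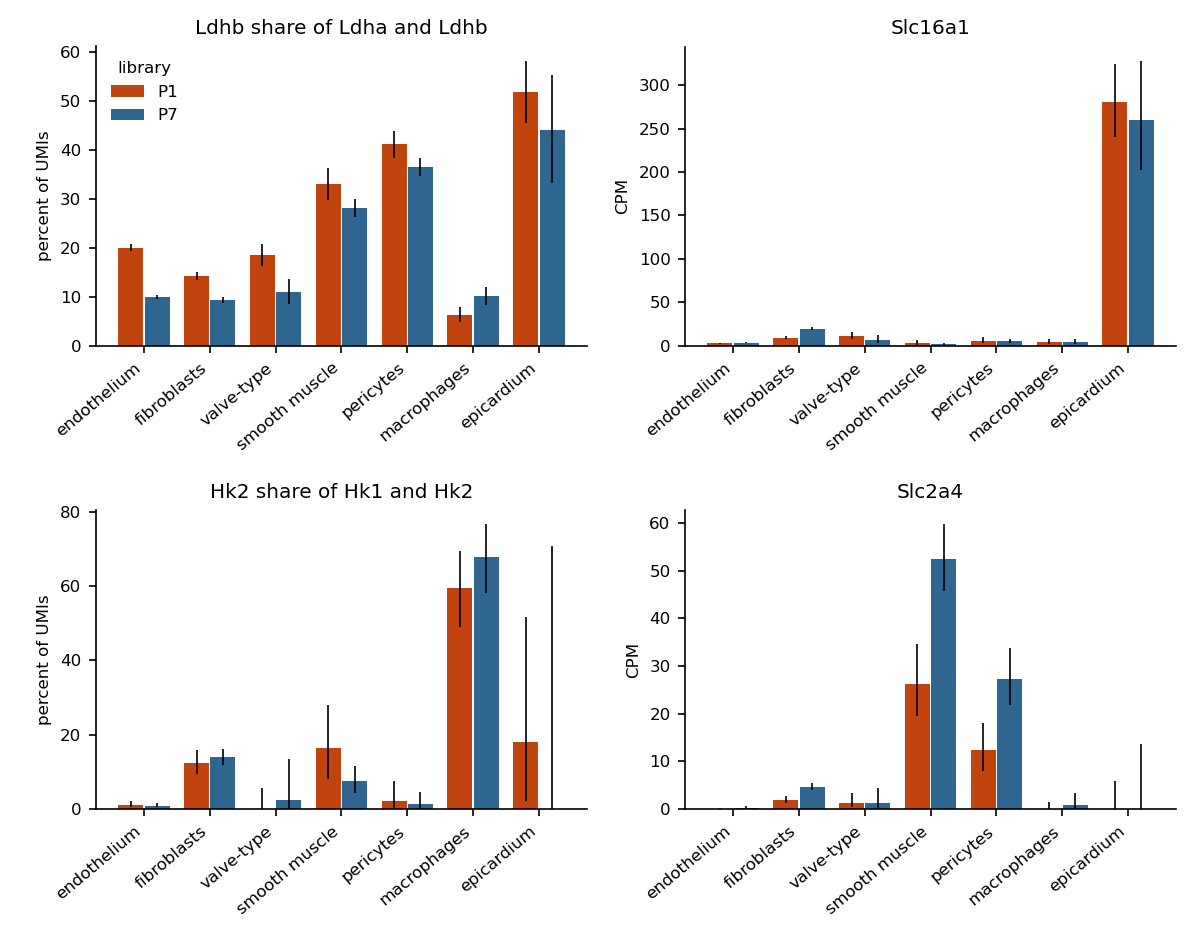
Values by class in the P1 library (orange) and the P7 library (blue), with 95% counting intervals: the Ldhb share of Ldha and Ldhb UMIs in percent, Slc16a1 in CPM, the Hk2 share of Hk1 and Hk2 UMIs in percent, and Slc2a4 in CPM. Slc16a1 reaches 280.3 and 259.9 CPM in epicardium and at most 19.5 CPM elsewhere, and the Hk2 share reaches 59.6% and 67.9% in macrophages.

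Inside the cell pyruvate is oxidised in mitochondria. Pdha1, Pdhb and Dlat, subunits of the pyruvate dehydrogenase complex, summed to 155 and 147 CPM in endothelium, 190.5 and 193 CPM in fibroblasts and 251 and 270.3 CPM in smooth muscle, and none of the 3 differed 1.5-fold between the ages in a class where it was measured. Mpc1 and Mpc2 form the mitochondrial pyruvate carrier. Mpc2 had 413 CPM (403 to 423) at P1 and 258 CPM (252 to 263) at P7 in fibroblasts, 757 CPM (691 to 828) and 171 CPM (125 to 228) in epicardium, and 156 and 154 CPM in endothelium. Mpc1 stayed within 1.5-fold in every class measured, at 143 and 173 CPM in fibroblasts and 135 and 100.3 CPM in epicardium, so that the carrier subunits were not shifted alike. Epicardial values rest on 481 and 46 UMIs of Mpc2.

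Among the kinases that inhibit pyruvate dehydrogenase, Pdk1 had 16.7 CPM (14.9 to 18.6) in endothelium at P1 and 9.73 CPM (8.62 to 10.9) at P7. In the gated subsets the values of Pdk1 were 12.2 and 9.43 CPM in Aplnr, 12.2 and 11.8 CPM in Car4, 13.3 and 13 CPM in Npr3 and 9.69 and 15.7 CPM in Gja5 cells, with overlapping intervals in each. The Aplnr, Car4, Npr3 and Gja5 subsets held 269, 175, 202 and 33 of the 1622 endothelial cells at P1. At P7 they held 1103, 204, 61 and 135 of 3200. The remaining Cdh5 cells were not summed apart. At P1 each subset lay below the 16.7 CPM of all endothelial cells, so the remaining Cdh5 cells together lay above it. Their level at P7 was not computed, and in which cells the Pdk1 difference lies was not tested. Pdk1 took 47.6% of the UMIs of Pdk1, Pdk2 and Pdk3 in endothelium at P1 and 35.5% at P7, and Pdk3 took 57.8% and 56.6% in fibroblasts. Pdk4 is not a member and is not in these shares, and it had 76 and 48 UMIs in endothelium. In macrophages Pdk1 had 11.7 and 19.2 CPM on 28 and 42 UMIs, and the interval of the log2 ratio, -1.46 to 0.01, included 0. Among the gated classes Pdk2 was highest in smooth muscle at P1, at 17.8 CPM, and in epicardium at P7, at 22.3 CPM, and the cardiomyocyte-rich barcodes had 84.5 and 54.6 CPM, on 47 and 3 UMIs. Pdk3 in epicardium had 50.4 CPM (34.5 to 71.1) on 32 UMIs at P1 and 3.71 CPM (0.0940 to 20.7) on 1 UMI at P7, a log2 ratio of 3.20 with an interval from 1.18 to 9.11. It was thus the highest of the gated classes at P1 and the lowest at P7, but with 33 UMIs in all it is not among the measured members. It made up 61.5% (47.0 to 74.7) of the 52 UMIs of Pdk1, Pdk2 and Pdk3 there at P1 and 8.33% (0.211 to 38.5) of 12 at P7.

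Within endothelium, 0 of 22 measured members differed 1.5-fold in the same direction at both ages between the Aplnr and Npr3 subsets, where 9.31% of all genes were higher in Aplnr cells and 12.6% in Npr3 cells. The Aplnr subset was above the Npr3 subset by at least 1.5-fold at P1 alone for Gapdh (1176 against 671 CPM), Ldha (633 against 344 CPM) and Pkm (518 against 262 CPM). At P7 it was above by less than 1.5-fold, at 874 and 843 CPM for Gapdh, 586 and 406 CPM for Ldha and 413 and 348 CPM for Pkm. The Npr3 subset at P7 held only 61 cells. How many of all genes differed in this way at P1 alone was not counted. At P1, 29.0% of Aplnr cells and 10.4% of Npr3 cells had a UMI of the cell cycle genes Mki67 or Top2a. What part this has in the differences was not tested.

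Cells with a UMI of Mki67 or Top2a were taken as cycling. The members summed to 4552 CPM in cycling and 3791 CPM in other endothelial cells at P1, and to 3800 and 3709 CPM at P7. In endothelium 0 of 27 members were higher in cycling cells in both libraries, against 7.05% of all genes, and Pdk2 and Pgam2 were higher in the other cells, against 4.52%. In fibroblasts 0 of 30 were higher in cycling cells, against 6.4% of all genes, and Aldoa was higher in the other cells, against 1.84%, at 305 against 200.4 CPM at P1 and 329 against 180.5 CPM at P7.

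A further 53 genes of glycogen, the pentose phosphate pathway, pyruvate and shuttle metabolism were counted in the same way. In endothelium 4 of 42 measured (9.52%) were higher at P1 (Fbp1, Me1, Pdk4 and Pygl) and 3 (7.14%) at P7 (Pygm, Pdp1 and Pdp2), near the 8.01% and 7.83% of all genes. In fibroblasts 3 of 41 were higher at P1 (Pdk4, Txnip and Gys1) and Bpgm at P7, beside 9.1% and 8.3% of all genes, and in macrophages 2 of 29 at P1 (Got1 and Emb) and Hk3 at P7, beside 5.67% and 10.5%. Past 2-fold in these classes were 4 genes, all in endothelium. Me1, the cytosolic malic enzyme, had 9.84 CPM at P1 and 3.14 CPM at P7, Pdk4, a further pyruvate dehydrogenase kinase, 3.96 and 1.69 CPM, and Fbp1, an enzyme of gluconeogenesis, 2.08 and 0.529 CPM. Pygm, the muscle glycogen phosphorylase, was higher at P7, at 2.71 and 9.17 CPM, and the cardiomyocyte marker genes, at 329 and 564 CPM, were higher there too. Their part in the Pygm value was not tested.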

How the data were processed

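Per the labels and the methods, live cells from 3 pooled hearts per age were captured with a 10x Genomics 3 prime kit. The authors aligned reads to mm10 (GRCm38) with Cell Ranger 3.1.0, as their processing notes state, and deposited raw UMI counts per gene and barcode, not normalised and before cell filters. No column was left unused (0). The members and lists were chosen with earlier results of these data known.

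Lineage gates asked for at least 2 UMIs of the own gate gene, and no more than 1 UMI of each other gate gene and fewer than of the own. Smooth muscle and pericytes were told apart by the higher of Myh11 and Kcnj8, Pdgfra was allowed in valve-type and epicardial cells, and valve-type cells needed 1 UMI each of Fmod and Scx. Endothelial subsets had a UMI of exactly 1 of Gja5, Aplnr, Car4 and Npr3. Cardiomyocyte-rich barcodes had at least 2% of UMIs in 6 marker genes and were not kept apart from the gated classes. No doublet caller was run. Cells beyond the limits above on other gate genes, or with over 8000 genes, were left out. Cells with another gate gene within those limits were kept. An alternative left out the top 6% by UMIs. UMIs of free RNA stay in the counts. Since 3 prime UMIs count molecules, no length scaling was applied.

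CPM have exact Poisson intervals (95%), ratios have conditional binomial ones and shares have Clopper-Pearson ones. In the text a count of 0 was given the limit of 3 counts. Figures with CPM intervals draw the exact interval, which reaches higher for a count of 0. For thinning to 2000 UMIs, 574 shallower P1 cells and 727 P7 cells were dropped. Named genes were all members, with full values for the 6 largest ratios each way past 1.5-fold in the main comparisons and for paralogs. Calculations used python 3.11.15, numpy 2.4.6, scipy 1.17.1, pandas 2.3.3 and matplotlib 3.10.9, and the ratios were tested on simulated counts. Alternatives varied cell filters, gates, depth, scaling, thresholds, cycling, lung-type and cardiomyocyte-RNA cells. For single log2 ratios 5 of these, centring, per-cell means, and leaving out cycling, lung-type or cardiomyocyte-RNA cells, were chosen after seeing the data. Gene positions and overlaps are from GENCODE on GRCm38.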

Additional observations from a re-analysis of the deposited data

Results flagged for a closer look

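The ages stood in opposite order in different classes for 3 members, each beyond 1.5-fold on both sides. These were noticed because the 1 library of each age gave opposite signs, and the difference between the classes was not tested. Genes that meet the same rule were not counted over all genes, so whether 3 members is usual is not known here. Ldhb was higher at P1 in endothelium (log2 ratio 1.12), fibroblasts (0.90) and valve-type cells (0.90) and higher at P7 in macrophages (-0.71). Pfkp was higher at P1 in smooth muscle (0.59) and at P7 in fibroblasts (-0.86). Pgam2 was higher at P1 in fibroblasts (0.89) and at P7 in endothelium (-0.93) and smooth muscle (-1.55). The 8 cardiomyocyte marker genes were higher at the same age as Pgam2 in fibroblasts (236 CPM against 111 CPM at P7) and in endothelium (329 and 564 CPM). Their sum was higher at the other age in smooth muscle (669 and 158 CPM). Ckm, 1 of the 8, had only 0.861 and 2.93 per 100 marker UMIs there, against 5.36 and 5.64 in cardiomyocyte-rich barcodes. The sum therefore need not measure cardiomyocyte RNA in smooth muscle. The part of the marker genes in the Pgam2 values was not tested. Pfkp in smooth muscle and Ldhb in macrophages lie close to 1.5-fold and came to 0.45 and -0.58 under 1 alternative each.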

How the results depend on the processing

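No paired analysis was possible because each age had 1 library, and for the same reason no replicate could be left out. Over the alternatives 2138 of 2262 recomputed log2 ratios stayed within the counting interval of the reported value, 122 did not and 2 changed sign: after thinning to 2000 UMIs Slc16a3 in smooth muscle came to 1.38 and Pdk1 in macrophages to 0.43, both on few UMIs and with intervals that include 0. Of 202 recomputed counts and medians, 181 stayed within 1.5 times the reported count, or within the median of the members' interval bounds, and 21 did not. For P1 against P7 these cover endothelium, fibroblasts and macrophages alone. The counts and medians of smooth muscle, pericytes, valve-type cells and epicardium were not recomputed. Thinning gave 2 members higher at P1 and a median of -0.084 in endothelium, 2 higher at P1 and 1 at P7 in macrophages, and 3 higher in fibroblasts than in endothelium. A gate of 1 UMI gave 0 members higher at P7 in endothelium, the mean of per-cell CPM gave 1 higher at P1 in macrophages, and leaving out cycling cells gave an endothelial median of -0.12. With no filter on low counts macrophages had 7 higher at P1 and 5 at P7. With at least 200 UMIs there were 2 higher at P1 in fibroblasts, 2 at P1 and 1 at P7 in macrophages, and 5 higher in fibroblasts than in endothelium. At 2-fold there were 1 and 0 in endothelium, 0 at P1 in fibroblasts, 0 and 1 in macrophages, and 1 and 5 for endothelium against fibroblasts. Thinning and the stricter filters leave fewer UMIs or genes by construction, and the cause of the other moves was not tested. Ldhb in endothelium stayed between 1.03 and 1.18, Pgam2 in smooth muscle between -1.64 and -1.09, and Eno3 in macrophages between -1.17 and -0.91. Of 242 recomputed paralog shares 234 stayed within their counting interval. The number of members with the same leading class lay between 12 and 21. Depth limits epicardium most, with 42 and 21 cells. Variation between hearts was not measured.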

Other observations

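In the cardiomyocyte-rich barcodes, 88 at P1 and 17 at P7, Pgam2 made up 88.3% and 96.0% of phosphoglycerate mutase UMIs and Eno3 92.9% and 96.2% of enolase UMIs. Pfkm made up 49.4% of the phosphofructokinase UMIs at P1 (82 of 166) and 81.2% at P7 (13 of 16, 54.4 to 96.0). Slc2a4 made up 90.9% of the UMIs of Slc2a1, Slc2a3 and Slc2a4 at P1 (10 of 11). Ldhb had 2182 CPM at P1 and 1983 CPM at P7, above its level in every gated class. Slc16a1 had 9 UMIs there at P1 and Slc16a3 had 0.

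Endothelial cells gated by Gja5, with 33 cells at P1 and 135 at P7, had less Gapdh than the Aplnr subset in both libraries, at 707 against 1176 CPM at P1 and 666 against 874 CPM at P7. Ldha in them was 356 CPM (301 to 419) at P1 and 518 CPM (478 to 560) at P7, while in all endothelial cells it was 540.2 and 568 CPM.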
